A study of Mus musculus with 2 samples.

Results

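CD8 T cells carrying interferon-induced transcripts were examined within the tumour-infiltrating T cells of treated and control mice. They were selected on their own transcript counts: a barcode had at least 1000 UMIs (unique molecular identifiers, each standing for 1 captured transcript), at least 500 genes and at most 10% mitochondrial UMIs. It also had at least 2 UMIs of the T cell receptor genes Cd3d, Cd3e and Cd3g together, at least 1 UMI of Cd8a and Cd8b1 and no UMI of Cd4 or Foxp3. Cycling cells were set aside by allowing at most 2 UMIs of Mki67, Top2a and Birc5. Among the CD8 cells so defined, those with at least 3 UMIs of Ifit1, Ifit3 and Rsad2 together are called interferon-high here, and the others are called other CD8 cells. There were 363 interferon-high CD8 cells of 16770 cells in all, with mSTAR1302 giving 290 of its 9155 cells and vehicle 73 of its 7615.

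The mice were BALB/c animals, 4 to 6 weeks old, that carried subcutaneous EMT6 tumours, a mammary carcinoma line of the same strain. Animals entered the groups when their tumours measured 80 to 150 mm3, and both groups carried the same tumour. The treated group was given 2 weekly cycles of mSTAR1302 by the intraperitoneal route, and the control group was given vehicle. According to its makers, mSTAR1302 joins interleukin-2 to an antibody that binds T cell receptors built with Trbv13-2 or Trbv13-3. CD4 and CD8 infiltrating cells were purified from digested tumours with magnetic beads, were kept in culture medium, and were profiled with a droplet method that reads the 3′ ends of transcripts. There was 1 library per group, and the sources used here do not say how many mice each holds. Cells of a library are not replicates, so no test between groups was possible. Every interval below is a 95% interval that covers counting error only. The interferon-high cells were chosen in these same cells, so each comparison with other CD8 cells is a description.

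Type I interferons signal through the receptor subunits Ifnar1 and Ifnar2 and the kinases Jak1 and Tyk2. The resulting complex, which includes Stat2 and Irf9, binds a DNA element called the interferon-stimulated response element. Interferon gamma acts at another element, the gamma-activated site, and many genes answer to both. Ifit1 and Ifit3 encode proteins that bind foreign or incompletely capped RNA, and Rsad2 encodes viperin, a radical enzyme that makes a chain-terminating nucleotide. Isg15 encodes a ubiquitin-like protein, and Slfn5 belongs to the Schlafen family, whose members regulate growth and RNA in lymphocytes.

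The promoters of the selecting genes and of a few others are shown because the results turn on which genes move with them. Each is the 250 bases before the transcription start in RefSeq on build GRCm38.p6, written 5′ to 3′ on the gene's strand. Capitals mark matches to GAAANNGAAA on either strand, a simple form of the interferon-stimulated response element.
Ifit1, chr19:34640639-34640888, plus strand: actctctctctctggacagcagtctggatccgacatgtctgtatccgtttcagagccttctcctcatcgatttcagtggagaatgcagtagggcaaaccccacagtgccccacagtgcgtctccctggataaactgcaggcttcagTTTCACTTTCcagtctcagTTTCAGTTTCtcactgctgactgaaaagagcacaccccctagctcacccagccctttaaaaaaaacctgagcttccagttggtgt
Ifit3, chr19:34583279-34583528, plus strand: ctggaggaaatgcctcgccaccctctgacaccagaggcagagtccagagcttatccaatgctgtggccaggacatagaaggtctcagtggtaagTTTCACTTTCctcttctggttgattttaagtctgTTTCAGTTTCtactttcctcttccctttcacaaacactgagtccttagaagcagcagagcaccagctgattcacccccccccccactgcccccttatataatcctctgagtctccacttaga
Rsad2, chr12:26456453-26456702, minus strand: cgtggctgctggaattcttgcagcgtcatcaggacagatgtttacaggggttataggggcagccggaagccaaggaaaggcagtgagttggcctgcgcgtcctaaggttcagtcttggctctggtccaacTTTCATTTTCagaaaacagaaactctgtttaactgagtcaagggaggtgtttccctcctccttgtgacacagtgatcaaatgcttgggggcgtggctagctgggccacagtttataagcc
Isg15, chr4:156200819-156201068, minus strand: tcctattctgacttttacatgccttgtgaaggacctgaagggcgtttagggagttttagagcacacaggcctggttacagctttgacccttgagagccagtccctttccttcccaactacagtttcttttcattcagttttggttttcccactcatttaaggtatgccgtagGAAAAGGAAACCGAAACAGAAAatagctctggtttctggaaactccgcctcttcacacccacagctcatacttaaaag
Cxcl10, chr5:92348890-92349139, minus strand: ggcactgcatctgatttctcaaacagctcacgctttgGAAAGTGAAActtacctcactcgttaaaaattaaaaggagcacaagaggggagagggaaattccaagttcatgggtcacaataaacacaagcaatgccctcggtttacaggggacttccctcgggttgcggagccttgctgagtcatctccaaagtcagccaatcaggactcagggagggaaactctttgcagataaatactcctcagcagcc
Xcl1, chr1:164935523-164935772, minus strand: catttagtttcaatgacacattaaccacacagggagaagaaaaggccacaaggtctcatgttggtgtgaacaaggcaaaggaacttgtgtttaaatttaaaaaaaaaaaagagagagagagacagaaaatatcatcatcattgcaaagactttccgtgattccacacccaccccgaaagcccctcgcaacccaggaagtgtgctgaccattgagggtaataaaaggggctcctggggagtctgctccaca

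Ifit1 held matches beginning 104 and 85 bases before its start, and Ifit3 held matches at 156 and 122 bases. Rsad2 held 1 match at 120 bases, and Isg15 held 3 that overlap each other, at 78, 72 and 66 bases. Cxcl10, a chemokine gene described below, held 1 at 213 bases. Xcl1, a chemokine gene that was low in interferon-high cells, held none in this window, which says only that these letters are not there. Irf7, which was higher in interferon-high cells, and Gzmd, which was lower, also held none and are not shown. Slfn5, which was higher, held a match at 155 bases and is not shown either. All examined genes with a match were thus higher in interferon-high cells, the selecting genes by the selection itself. Lack of a match was seen in higher and in lower genes, and the genes examined were few.

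Selection left a graded population. Ifit1, Ifit3 and Rsad2 together had 0 UMIs in 4345 CD8 cells of mSTAR1302 and 1589 of vehicle, 1 UMI in 531 and 101, and 2 UMIs in 185 and 35. Cells just inside the threshold, with 3 UMIs, numbered 89 in mSTAR1302 and 18 in vehicle. Their Isg15 level was 517 CPM (counts per 1000000 UMIs summed over the cells) in mSTAR1302 and 343 CPM in vehicle, against 322 and 303 CPM in cells just outside, with 2 UMIs. Cell numbers thus fell step by step across the threshold, with no gap at it, and Isg15 levels rose across it in mSTAR1302. In vehicle, Isg15 differed little around the threshold, with 330 CPM at 4 UMIs and overlapping intervals at 2, 3 and 4 UMIs. The median interferon-high cell had 5 selecting UMIs in mSTAR1302 (quartiles 3 and 7, highest 31) and 6 in vehicle (quartiles 4 and 10, highest 47).

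**Figure D1:**
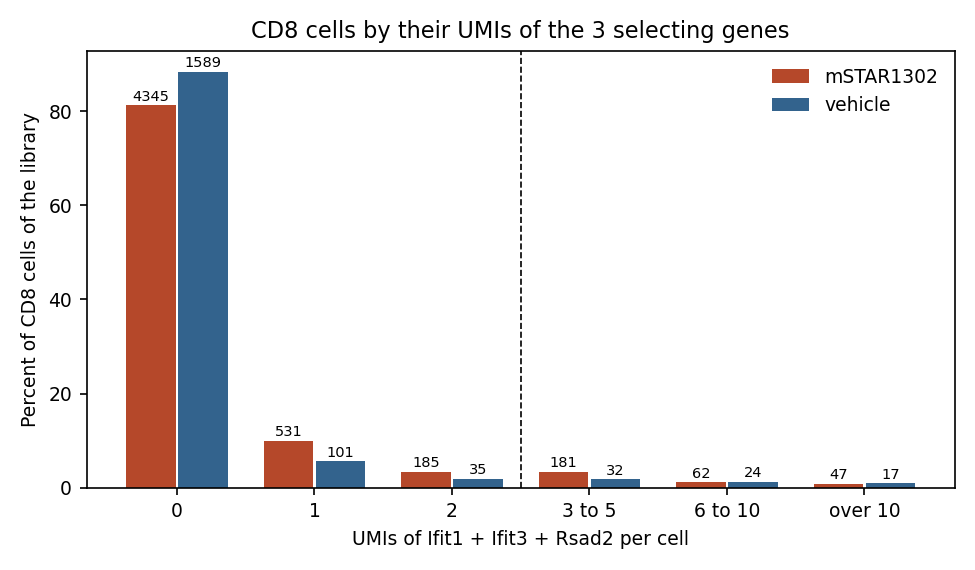
Percent of the CD8 cells of each library (vertical axis) by their summed UMIs of Ifit1, Ifit3 and Rsad2 (horizontal axis), with cell numbers above the bars. The dashed line marks the threshold of 3 UMIs: 290 mSTAR1302 and 73 vehicle cells lie to its right, and the numbers fall off without a gap across it.

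The share of CD8 cells that were interferon-high was 5.42% in mSTAR1302 (290 of 5351, exact Clopper-Pearson interval 4.83 to 6.06%) and 4.06% in vehicle (73 of 1798, 3.20 to 5.08%). The difference was 1.36 points, with a counting interval of 0.193 to 2.40 points. A fixed number of UMIs is easier to reach in a deep cell, and CD8 cells had a median of 6106 UMIs in mSTAR1302 and 9512.5 in vehicle. After every cell was thinned to 3000 UMIs, the shares were 2.57% (121 of 4705, 646 shallower cells left out) in mSTAR1302 and 1.94% (33 of 1704, 94 left out) in vehicle. The difference was then 0.635 points, and its interval of -0.240 to 1.38 points included 0. Thinning lowered both shares, and other thresholds, given at the end, gave larger and smaller differences. At least 1 UMI of a selecting gene was present in 18.8% of mSTAR1302 and 11.6% of vehicle CD8 cells, and in 12.4% and 6.75% after thinning. The same threshold was passed by 16 of 734 mSTAR1302 (2.18%) and 20 of 577 vehicle (3.47%) CD4 cells without Foxp3. Of CD4 cells with Foxp3, the regulatory T cell factor, 5 of 114 mSTAR1302 (4.39%) and 60 of 995 vehicle cells (6.03%) passed it, a difference of -1.64 points whose interval of -4.64 to 3.98 points included 0.

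Interferon-high cells had a median of 6955.5 UMIs in mSTAR1302 (1544 to 35091) and 8193 in vehicle (1568 to 26770), against 6064 and 9566 in other CD8 cells. They were thus a little deeper than other CD8 cells in mSTAR1302 and shallower in vehicle. The median mitochondrial share was 3.26% in mSTAR1302 and 2.84% in vehicle interferon-high cells, against 3.63% and 3.20% in other CD8 cells. Summed UMIs came to 2294022 and 634710 in the interferon-high cells of mSTAR1302 and vehicle, and to 34901645 and 17432510 in the other CD8 cells, so vehicle interferon-high cells gave the least precise values. The libraries shared 17 barcode sequences among their kept cells.

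Most interferon-high cells held more than 1 of the selecting genes. All 3 were present in 90 mSTAR1302 cells (31.0%) and 29 vehicle cells (39.7%), and a pair of them in 146 (50.3%) and 31 (42.5%). Ifit1 had a UMI in 91.0% of mSTAR1302 interferon-high cells against 7.63% of other CD8 cells, and in 89.0% against 3.65% in vehicle. Ifit3 was present in 78.6% against 6.54% in mSTAR1302 and in 87.7% against 3.59% in vehicle. Rsad2 was present in 42.8% against 1.48% in mSTAR1302 and in 45.2% against 1.28% in vehicle, which makes it the sparsest of the selecting genes. Droplets with 50 to 200 UMIs, taken as a gauge of free RNA, held 22.8 CPM of Ifit1 in mSTAR1302 and 19.2 in vehicle, and 11.5 and 9.73 CPM of Rsad2. Those levels were above the 12.8 and 4.13 CPM of Ifit1 and the 2.32 and 1.55 CPM of Rsad2 in other CD8 cells, and the part of free RNA in the UMIs of other CD8 cells was not tested. Isg15 had 158 and 322 CPM in other CD8 cells with 1 and 2 selecting UMIs in mSTAR1302, and 124 and 303 CPM in vehicle, above the 58.6 and 27.7 CPM of cells with none.

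To read the selecting genes in UMIs that did not select the cells, each cell's UMIs were divided at random, with equal chance, into 2 parts. Cells with at least 2 selecting UMIs in the first part, 248 in mSTAR1302 and 69 in vehicle, were then read in the second part, beside the 4655 and 1648 cells with none. Ifit1 had 346 CPM against 11.8 CPM in mSTAR1302 and 451 against 3.35 CPM in vehicle. Rsad2 had 114 against 1.88 CPM in mSTAR1302 and 189 against 1.55 CPM in vehicle. Isg15 had 788 against 70.2 CPM in mSTAR1302 and 903 against 31.3 CPM in vehicle. The transcripts were therefore high in the selected cells in UMIs that played no part in picking them, though both parts come from the same cells.

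Isg15, which was not used to select cells, had 799.9 CPM in mSTAR1302 interferon-high cells and 80.3 CPM in other CD8 cells, a ratio of 9.96 (9.39 to 10.6). In vehicle it had 874 against 37.2 CPM, a ratio of 23.5 (20.9 to 26.4). An Isg15 UMI was found in 92.4% of mSTAR1302 interferon-high cells against 27.7% of other CD8 cells, and in 86.3% against 20.2% in vehicle, and after thinning to 3000 UMIs in 78.2% against 17.5% and in 73.2% against 8.02%. Slfn5 had 167 against 17.5 CPM in mSTAR1302, a ratio of 9.55 (8.38 to 10.9), and 310 against 23.2 CPM in vehicle, a ratio of 13.4 (11.2 to 15.9). Both marker genes that the selection left aside were thus high in the selected cells of each library. Isg15 also climbed with the number of selecting UMIs, from 575.5 CPM at 3 to 5 UMIs through 935.5 to 1447 CPM above 10 UMIs in mSTAR1302, and from 344.7 through 771.7 to 1955 CPM in vehicle. Slfn5 had 413 CPM in mSTAR1302 and 792 CPM in vehicle cells above 10 selecting UMIs.

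**Figure D2:**
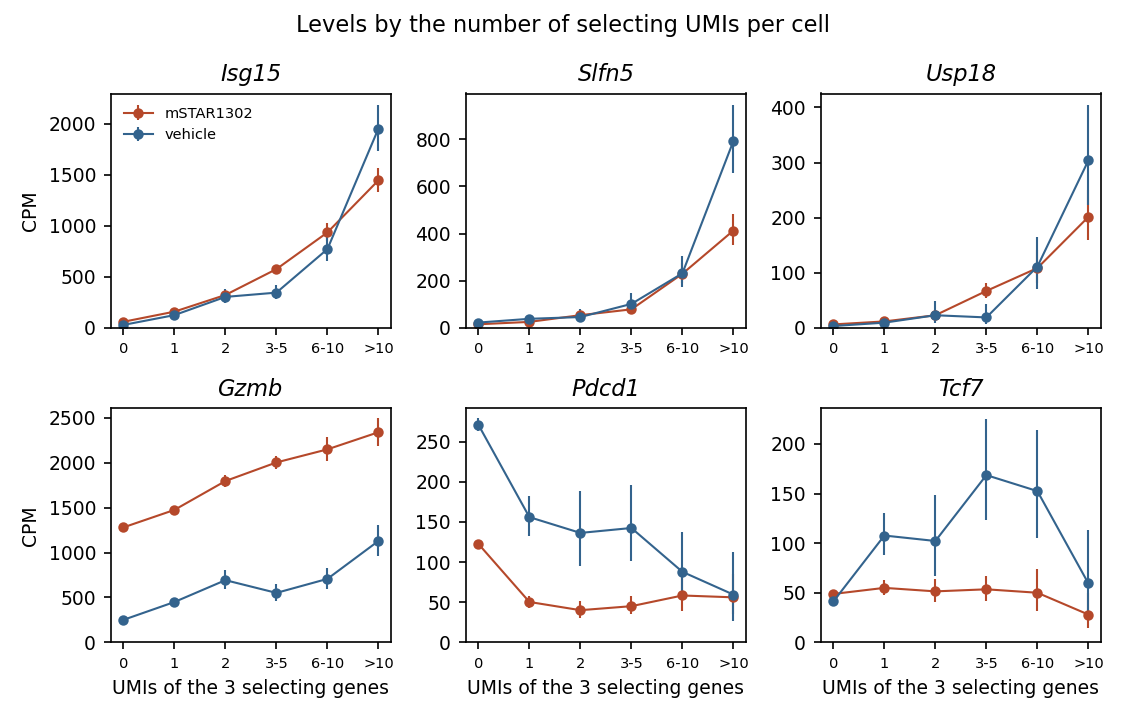
Levels in CPM (vertical axes, with 95% Poisson intervals for counting error) of 6 genes in CD8 cells grouped by their UMIs of Ifit1, Ifit3 and Rsad2 (horizontal axes). Isg15, Slfn5 and Usp18 were highest in cells with over 10 selecting UMIs in both libraries (Isg15 at 1447 CPM in mSTAR1302 and 1955 CPM in vehicle), and Pdcd1 was highest in cells with none.

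Of 4627 genes with a mean of at least 20 CPM over the summed counts compared in each library, 103 were at least 2-fold higher in interferon-high than in other CD8 cells in both libraries (2.23%) and 25 at least 2-fold lower (0.54%), the selecting genes left out. Of the 103, 62 belonged to the interferon gene lists used here, 1 to another list and 40 to none. Of the 25, 0 belonged to an interferon list, 12 to other lists and 13 to none. Within mSTAR1302, 107 of 4767 genes were at least 2-fold higher (2.24%) and 31 lower (0.65%). Within vehicle, 285 of 5194 were higher (5.49%) and 218 lower (4.2%). The median log2 ratio over all genes compared was -0.01 in each library.

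Antiviral effectors made up the largest interferon group. Of 28 genes compared in mSTAR1302, of 42 in the list, 23 were at least 2-fold higher in interferon-high cells, with a median log2 ratio of 1.82. In vehicle 29 of 30 were higher, with a median of 2.65. Ifit2, a relative of Ifit1, had 149 CPM against 9.97 in mSTAR1302 (14.9-fold) and 206 against 5.11 in vehicle (40.4-fold). Oas3, which makes the oligoadenylates that switch on RNase L, had 85.0 against 20.6 CPM in mSTAR1302 (4.13-fold) and 117 against 5.79 in vehicle (20.1-fold). Bst2, or tetherin, which holds budding virus at the cell surface, had 343 against 113 CPM in mSTAR1302 and 501 against 112 in vehicle. Isg20, an exonuclease of RNA, had 322 against 70.9 CPM in mSTAR1302 (4.54-fold) and 372 against 32.1 in vehicle (11.6-fold). Rtp4, an interferon-induced zinc finger protein, had 188 against 33.6 CPM in mSTAR1302 (5.59-fold) and 181 against 12.4 in vehicle (14.6-fold). The ratio was larger in vehicle for each of these 5 genes, while their levels in other CD8 cells were lower in vehicle, by little for Bst2.

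The cytosolic sensors of nucleic acid followed the effectors, except the adaptors among them. In mSTAR1302 5 of 7 genes compared were at least 2-fold higher, of 9 in the list, and likewise 5 of 7 in vehicle, with median log2 ratios of 1.76 and 2.93. Ddx58, which encodes RIG-I, had 112 against 32.4 CPM in mSTAR1302 (3.46-fold) and 186 against 23.5 in vehicle (7.90-fold). Ifih1, which encodes the long double-stranded RNA sensor MDA5, was 5.01-fold higher in mSTAR1302 and 8.09-fold higher in vehicle. Eif2ak2, the kinase PKR, was 5.34-fold and 7.69-fold higher, and Zbp1, the sensor of Z-form nucleic acid, had 563 against 178 CPM in mSTAR1302 and 618 against 74.6 in vehicle. Tmem173, which encodes the DNA sensing adaptor STING, had 35.7 against 35.9 CPM in mSTAR1302 and 52.0 against 38.1 in vehicle, and did not reach 2-fold.

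Among the transcription factors of the pathway, Stat2 and Irf9 were higher in interferon-high cells of both libraries. Stat2 had 56.7 against 15 CPM in mSTAR1302, 3.77-fold (3.09 to 4.58), and 77.2 against 13.5 in vehicle, 5.70-fold (4.10 to 7.78). Irf9 had 91.1 against 43.7 CPM in mSTAR1302 (2.09-fold) and 124 against 33.3 in vehicle (3.73-fold). Irf7, which drives later interferon production, had 194 against 49.8 CPM in mSTAR1302 and 214 against 27.8 in vehicle. Irf1, which interferon gamma induces strongly, was 1.36-fold higher in mSTAR1302 and 2.12-fold in vehicle. Irf3, the latent factor that acts ahead of interferon production, had 24.8 against 23.7 CPM in mSTAR1302 and 37.8 against 25 in vehicle. Irf8 stood the other way, at 86.3 against 142 CPM in mSTAR1302 and 115 against 365 in vehicle, where it was 3.17-fold lower. In all, 4 of 8 factors compared were at least 2-fold higher in mSTAR1302, of 9 in the list, and 5 were higher and 1 lower in vehicle, with medians of 0.85 and 1.47.

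Genes of the Schlafen, interferon-inducible Ifi200 and GTPase families were higher almost throughout. The GTPases, which attack the vacuoles of intracellular microbes, had 15 of 16 genes at least 2-fold higher in mSTAR1302, of 17 in the list, and 16 of 16 in vehicle, with medians of 1.56 and 2.5. Gbp2 had 230 against 69.0 CPM in mSTAR1302 (3.33-fold) and 211 against 29.8 in vehicle (7.08-fold). Igtp had 352 against 112 CPM in mSTAR1302 (3.15-fold) and 246 against 47.2 in vehicle (5.21-fold), so both arms of the family, the guanylate-binding proteins and the immunity-related GTPases, were higher. All 8 Ifi200 genes compared, of 11 in the list, were higher in each library, with medians of 2.08 and 3.36. Mndal, the most abundant of those named here, had 578 against 189 CPM in mSTAR1302 and 786 against 135 in vehicle. Of the Schlafen genes 3 of 4 compared were higher in mSTAR1302, of 7 in the list, and 4 of 4 in vehicle, with medians of 1.91 and 2.98. Slfn2, a gene needed for T cell quiescence, had the smallest ratios of those named here, 1.85 in mSTAR1302 and 2.07 in vehicle. Members of these families have near-identical copies, as do Ifit3 and Ifit3b, the Ly6c genes and the granzyme D to F genes, so how reads were divided among copies is uncertain.

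**Figure D3:**
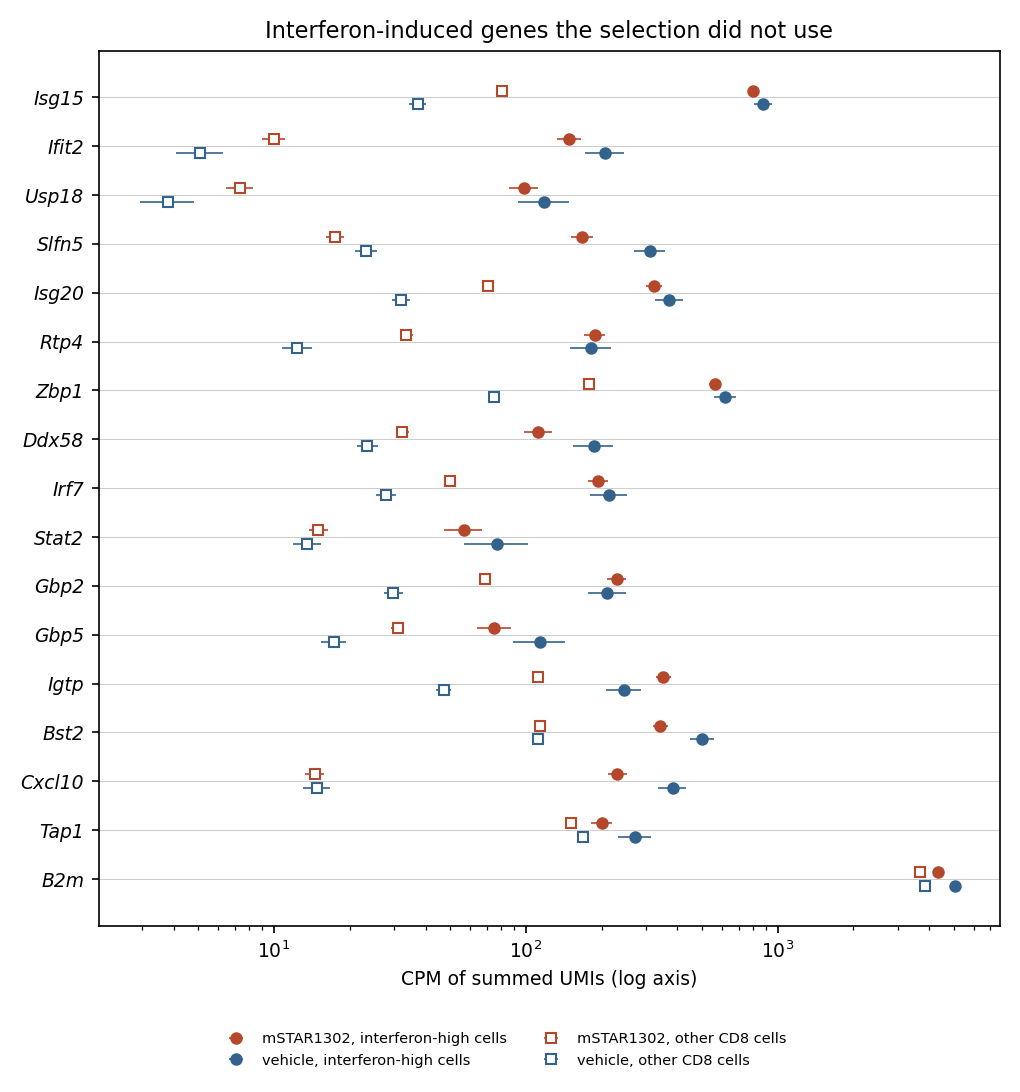
Levels in CPM of summed UMIs (horizontal log axis, with 95% Poisson intervals for counting error) of 17 interferon-induced genes in interferon-high cells (filled circles) and other CD8 cells (open squares) of each library. For each gene except B2m and Tap1, the filled circles lie well to the right of the open squares, as for Isg15 at 799.9 against 80.3 CPM in mSTAR1302 and 874 against 37.2 CPM in vehicle.

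Antigen presentation genes moved little. In mSTAR1302 0 of 17 genes reached 2-fold although all 17 lay above 0, with a median of 0.41, and in vehicle 2 of 17 reached it, with a median of 0.68. B2m, the light chain of MHC class I, had 4332 against 3677 CPM in mSTAR1302, 1.18-fold (1.15 to 1.20), and 5064 against 3838 in vehicle, 1.32-fold (1.27 to 1.37). Tap1, a subunit of the peptide transporter, was 1.33-fold higher in mSTAR1302 and 1.61-fold in vehicle. Psmb10, a subunit of the immunoproteasome, was 1.93-fold and 2.52-fold higher, and Nlrc5, the transactivator of class I genes, was 1.21-fold and 2.39-fold higher. The class I genes were already among the more abundant transcripts of other CD8 cells.

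Receptors and feedback genes divided. The receptor list had 0 of 5 compared genes at 2-fold in either library, with medians of 0.09 in mSTAR1302 and 0.57 in vehicle, and Ifnar1 had 92.8 against 91.9 CPM in mSTAR1302 and 134 against 116 in vehicle. Usp18, which removes Isg15 from proteins and blocks the type I receptor, had 98.5 against 7.33 CPM in mSTAR1302 (13.4-fold, 11.2 to 16.1) and 118 against 3.79 in vehicle (31.2-fold, 22.1 to 44.1). Of 7 feedback inhibitors compared it was the only one at 2-fold in mSTAR1302, and Socs3 joined it in vehicle. The cytokine signalling suppressor Socs1 was 1.45-fold higher in mSTAR1302 and 1.43-fold in vehicle. Socs3 had 93.7 against 86.4 CPM in mSTAR1302 and 147 against 54.0 in vehicle, where it was 2.71-fold higher. Interferon genes themselves were nearly silent: 7 of the 8 in the list had 0 UMIs in all 4 sums, which allows up to 1.31 CPM in mSTAR1302 and 4.73 CPM in vehicle interferon-high cells. Ifng, the exception, was lower in interferon-high cells, at 943 against 1632 CPM in mSTAR1302 (1.73-fold lower) and 643 against 1340 in vehicle (2.08-fold lower), and 1 cell held 23.3% of its UMIs in mSTAR1302.

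Secreted and surface products were mixed. Cxcl10, a chemokine that draws cells bearing Cxcr3, had 231 against 14.5 CPM in mSTAR1302 (15.9-fold, 14.1 to 18.0) and 383 against 14.8 in vehicle (25.9-fold, 21.6 to 30.9). It was found in 76 mSTAR1302 and 28 vehicle interferon-high cells, and the highest cell held 6.42% and 22.6% of its UMIs. Near-empty droplets held 42.2 CPM of Cxcl10 in mSTAR1302 and 82.1 CPM in vehicle, above the level in other CD8 cells. Cd274, which encodes PD-L1, was 1.98-fold higher in mSTAR1302 and 4.13-fold in vehicle. Ly6a, or Sca-1, had 920 against 315 CPM in mSTAR1302 (2.92-fold) and 701 against 146 in vehicle (4.81-fold). Ly6c2, a surface protein of memory and effector CD8 cells, had 967 against 528 CPM in mSTAR1302 (1.83-fold) and 955 against 143 in vehicle (6.67-fold). Ifitm3, an inhibitor of viral entry, was 2.16-fold higher in mSTAR1302 and 2.68-fold in vehicle, while Ifitm1 was 1.37-fold lower and 1.59-fold lower.

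Further genes higher in interferon-high cells, in none of the lists, were ranked by the bound of the ratio interval nearest 1 in the weaker library. The ranking did not ask whether interferon induces them. The leading gene was Ifi202b, an Ifi200 family member, 7.10-fold higher in mSTAR1302 and 16.4-fold in vehicle. Phf11a, Phf11c, Daxx, Pml, Trafd1, Gbp2b, 9930111J21Rik2, Samhd1, Parp10, Ccrl2 and Uba7 followed. Daxx and Pml, proteins of nuclear bodies, were 4.78-fold and 4.72-fold higher in mSTAR1302 and 8.13-fold and 6.05-fold in vehicle. Samhd1, which depletes the nucleotide pool, had 438 against 164 CPM in mSTAR1302 and 507 against 80.8 in vehicle. Uba7, the enzyme that activates Isg15 for conjugation, was 2.76-fold higher in mSTAR1302 and 4.74-fold in vehicle. Ccrl2 rested on 1 vehicle cell that held 63.6% of its UMIs.

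Promoter matches were counted by gene, as a match in any RefSeq promoter of the gene. The interferon-stimulated response element was found for 36 of 84 genes (42.9%) higher in both libraries that had a RefSeq entry. It was found for 1 of 24 genes (4.17%) lower in both. Among all genes compared, 4.65% of the 3724 with an entry held it, in a window of 250 bases before to 50 after the start. Of all 27025 genes with an entry, 3.99% held it. Of the lists, 9 of 10 GTPase genes, 9 of 10 Ifi200 genes and 16 of 36 antiviral genes held it, against 2 of 8 transcription factors and 0 of 9 cytokine genes. It was also held by 4 of 20 cytotoxic genes, 4 of 15 antigen presentation genes and 1 of 15 exhaustion genes, so it was not confined to the interferon lists. The gamma-activated site TTCNNNGAA was found for 17 of 84 genes (20.2%) higher in both libraries and for 6 of 10 GTPase genes. It was found for 8.27% of all genes compared. These are matches of letters and not shown to be bound.

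Interferon-high cells also differed from other CD8 cells in the genes of effector state. In both libraries they had less of the granzymes D and E and of the chemokine Xcl1. Gzmd had 22.7 against 189 CPM in mSTAR1302 (8.35-fold lower, 6.36 to 11.2) and 47.3 against 287 in vehicle (6.06-fold lower, 4.24 to 8.99). Those Gzmd counts sat in few cells, and 1 cell held 40.4% of them in mSTAR1302 and 90.0% in vehicle. Gzmf had 80.2 against 196 CPM in mSTAR1302 and 6.30 against 311 in vehicle. Gzmb, the main granzyme of killer cells, went the other way, at 2092 against 1323 CPM in mSTAR1302, 1.58-fold (1.53 to 1.63), and 742 against 268 in vehicle, 2.77-fold (2.51 to 3.04). Gzma had 1598 against 1130 CPM in mSTAR1302 (1.41-fold) and 189 against 76.1 in vehicle (2.49-fold). The vehicle rise in Gzma was uneven and not particular to interferon-high cells. Vehicle cells with 0, 1 and 2 selecting UMIs had 66.3, 196 and 235 CPM of Gzma. Those with 3 to 5, 6 to 10 and over 10 had 82.4, 328 and 178 CPM. Gzmk, a granzyme of memory-like CD8 cells, had 119 against 83.3 CPM in mSTAR1302 and 112 against 16.5 in vehicle (6.79-fold). Of the 19 cytotoxic genes compared, 3 were at least 2-fold lower in mSTAR1302 and 3 higher and 7 lower in vehicle. Near-empty droplets held 1120 CPM of Gzmb in mSTAR1302 and 630 CPM in vehicle, and the part of free RNA in the Gzmb level of cells was not tested.

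Several genes linked to chronic antigen signalling were lower in interferon-high cells. Of 15 exhaustion genes compared in mSTAR1302, 4 were at least 2-fold lower, with a median of -0.63, and in vehicle 7 were lower, with a median of -0.98. Pdcd1, which encodes PD-1, had 49.7 against 111 CPM in mSTAR1302 (2.24-fold lower, 1.86 to 2.73) and 104 against 262 in vehicle (2.52-fold lower, 1.98 to 3.27). Other CD8 cells with 1 and 2 selecting UMIs had 50.3 and 40.0 CPM in mSTAR1302, and 156 and 136 CPM in vehicle. Cells with none had 123 CPM in mSTAR1302 and 271 CPM in vehicle, so a lower Pdcd1 level was not particular to interferon-high cells. A Pdcd1 UMI was present in 15.5% of mSTAR1302 interferon-high cells against 27.3% of other CD8 cells, and in 32.9% against 68.0% in vehicle. This order did not hold in the 16 vehicle interferon-high cells without any UMI of a macrophage, dendritic or B cell marker, where the log2 ratio of Pdcd1 was 0.22. Rgs16, a regulator of G protein signalling, was 3.60-fold lower in mSTAR1302 and 3.96-fold lower in vehicle. Lag3, an inhibitory receptor, was 1.88-fold lower and 3.61-fold lower, and Tnfrsf9, the costimulatory receptor 4-1BB, was 1.55-fold lower and 5.06-fold lower.

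Cytokine genes were mostly lower in mSTAR1302. In mSTAR1302 7 of 9 compared were at least 2-fold lower, with a median of -2.05, and in vehicle 4 were lower and 1 higher, with a median of -0.94. The higher gene in vehicle was Il2, with 55 UMIs of which 1 cell held 85.5%. Xcl1, which attracts cross-presenting dendritic cells, had 27.5 against 187 CPM in mSTAR1302 (6.82-fold lower, 5.32 to 8.88) and 142 against 964 in vehicle (6.8-fold lower, 5.53 to 8.46), and 1 vehicle cell held 53.3% of its UMIs. Areg, or amphiregulin, had 4.36 against 57.7 CPM in mSTAR1302 and 55.1 against 265 in vehicle. Il3 had 2 UMIs in mSTAR1302 interferon-high cells against 86.6 CPM in other CD8 cells, and 0 UMIs in vehicle, which allows up to 4.73 CPM, against 73.8 CPM. Ccl3, an inflammatory chemokine, was 3.11-fold lower in mSTAR1302 and 6.93-fold lower in vehicle. Ccl5 differed between the libraries, at 2710 against 2949 CPM in mSTAR1302 and 4136 against 1092 in vehicle, and its order in mSTAR1302 turned round when cells with 2 selecting UMIs were added (log2 ratio 0.08).

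Of 14 naive and memory genes compared in each library, 0 were at least 2-fold higher and 2 lower (Xcl1 and Bach2) in mSTAR1302, with a median of 0.06. In vehicle 4 were higher (S1pr1, Klf3, Klf2 and Tcf7) and 4 lower (Xcl1, Dapl1, Bach2 and Ccr7), with a median of 0.44. Bach2, a repressor that holds back effector differentiation, had 13.1 against 30.0 CPM in mSTAR1302 and 39.4 against 89.4 in vehicle. Tcf7, a factor of naive and stem-like T cells, had 48.4 against 49.5 CPM in mSTAR1302, 0.977-fold (0.799 to 1.18), and 137 against 45.8 in vehicle, 2.99-fold (2.37 to 3.73). Vehicle cells with 1 and 2 selecting UMIs, outside the interferon-high group, already had 108 and 102 CPM of Tcf7, against 41.2 CPM in cells with none. Within the vehicle group Tcf7 did not climb with the selecting UMIs, at 169 CPM for 3 to 5, 152 for 6 to 10 and 59.4 (27.2 to 113) above 10. Cxcr3, a receptor for Cxcl10, had 71.1 against 48.8 CPM in mSTAR1302 (1.46-fold) and 109 against 19.8 in vehicle (5.48-fold). Klf2, which keeps T cells in circulation, was 1.20-fold higher in mSTAR1302 and 2.62-fold in vehicle. Of homing genes 0 of 11 compared reached 2-fold in mSTAR1302, with a median of 0.22, and in vehicle 8 of 12 were higher and 1 lower, with a median of 1.41. Ccr7, the receptor that guides cells to lymph nodes, was 2.01-fold lower in mSTAR1302 and 3.83-fold lower in vehicle. Immediate early genes had medians of 0.01 in mSTAR1302 and 0.31 in vehicle, heat shock genes -0.03 and 0.14, and interleukin-2 and STAT5 genes 0.07 and 0.29. The leading lower genes in no list were Ccl1, Spp1, Nrgn, Serpinb6b, Mt1, Tnfsf11, Alcam, Ptprs, Ubash3b, Lgals3, Eea1 and Ece1, ranked in the same way. Of these, Lgals3 (1.86-fold lower in mSTAR1302 and 1.88-fold in vehicle) and Ece1 (1.99-fold lower in mSTAR1302) did not reach the 2-fold call in both libraries. Klre1, Pou2f2 and Nrn1, named after their values were seen, were the remaining genes of no list that reached it. Spp1, or osteopontin, had 30.1 against 157 CPM in mSTAR1302 and 28.4 against 449 in vehicle.

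**Figure D4:**
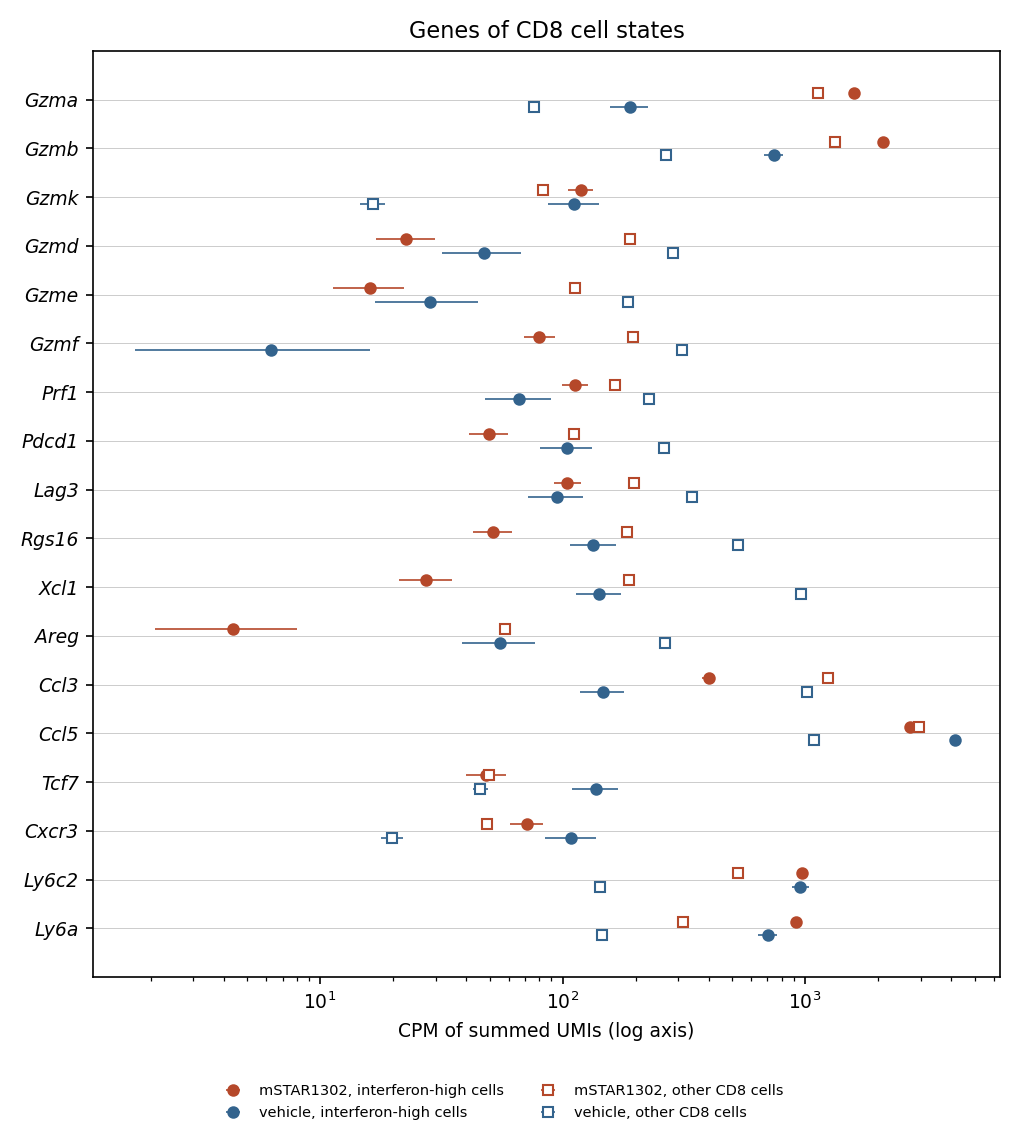
Levels in CPM of summed UMIs (horizontal log axis, with 95% Poisson intervals for counting error) of 18 genes of CD8 cell states in interferon-high cells (filled circles) and other CD8 cells (open squares) of each library. Gzmd, Xcl1, Rgs16 and Pdcd1 lie lower in interferon-high cells of both libraries, and Gzmb lies higher, at 2092 against 1323 CPM in mSTAR1302 and 742 against 268 CPM in vehicle.

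**Figure D5:**
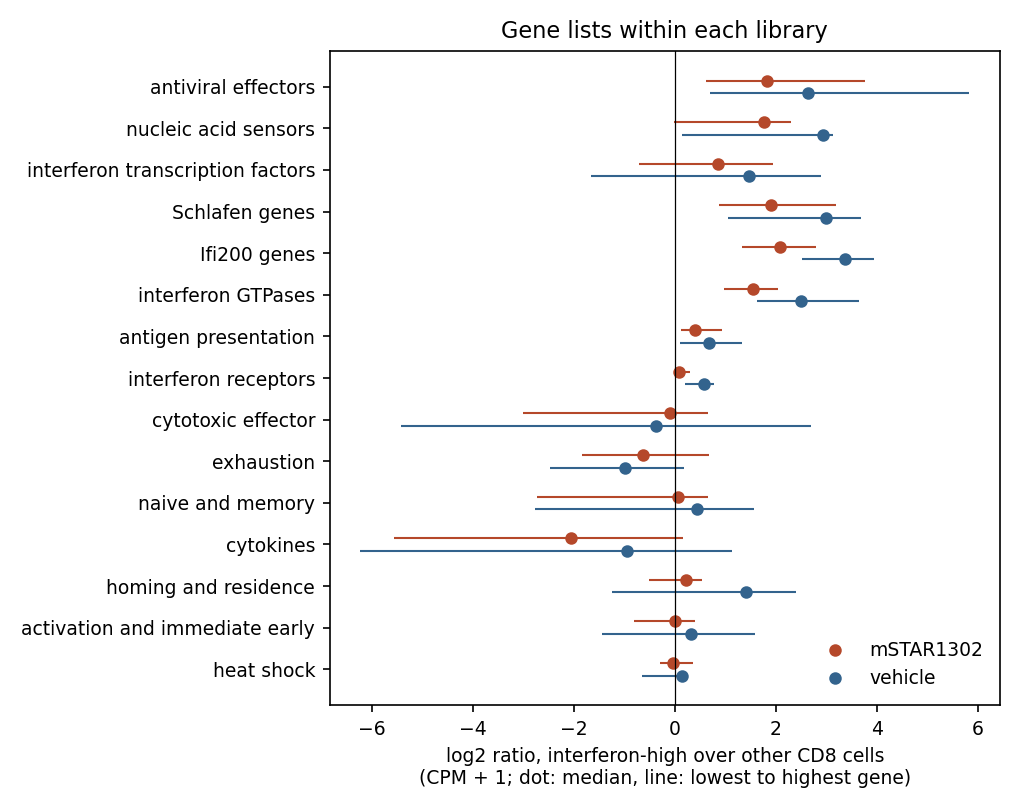
Log2 ratio of interferon-high over other CD8 cells with 1 CPM added (horizontal axis) for 15 gene lists, with the median gene as a dot and the lowest to highest gene as a line. By median, Ifi200 genes lie highest (2.08 in mSTAR1302, 3.36 in vehicle). Schlafen genes, antiviral effectors (1.82 in mSTAR1302, 2.65 in vehicle), nucleic acid sensors and GTPases follow. Cytokines (-2.05 in mSTAR1302, -0.94 in vehicle) and exhaustion genes have medians below 0.

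Interferon-high cells of mSTAR1302 were next set against those of vehicle. Of 4938 genes compared, 36 were at least 2-fold higher (0.729%) and 167 lower (3.38%) in mSTAR1302, and the median log2 ratio of all genes was -0.13. Scaling by the median ratio instead of the total moves every value up by that amount, and gives 55 higher and 121 lower. Few interferon genes reached 2-fold between the libraries in these cells. The antiviral list had 0 of 35 genes higher and 2 lower (Cmpk2 and Ifit3b), with a median of -0.35, and the GTPases had 0 of 16 at 2-fold, with a median of -0.14, about that of all genes. Schlafen genes and nucleic acid sensors lay lower in mSTAR1302, with medians of -0.73 and -0.53, and Slfn5 had 167 CPM in mSTAR1302 and 310 CPM in vehicle, 0.538-fold (0.452 to 0.642). Isg15 was 0.915-fold (0.832 to 1.01) and Rtp4 1.04-fold (0.842 to 1.29) of vehicle. In other CD8 cells the same contrast gave medians of 0.42 for 21 antiviral genes, 0.85 for 12 GTPases, 0.23 for 4 Schlafen genes and 0.18 for 4 sensors, with all genes at -0.12. Isg15 was 2.16-fold of vehicle there. The selection set the same minimum of interferon transcripts in both libraries and the genes compared were not the same in both sets of cells, so nothing is read from the difference between these medians.

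Of 19 cytotoxic genes compared between the interferon-high cells of the libraries, Gzma, Gzmb and Gzmf were at least 2-fold higher and Gzmd, Tbx21 and Zeb2 lower in mSTAR1302. The order of Gzmd rests on the single vehicle cell, described above, that held most of its UMIs. Gzmf had few UMIs in vehicle interferon-high cells. Gzma had 1598 CPM in mSTAR1302 and 189 CPM in vehicle interferon-high cells, 8.45-fold (7.05 to 10.2), against 14.9-fold in other CD8 cells. Gzmb was 2.82-fold (2.56 to 3.11), against 4.93-fold in other CD8 cells. Plac8 had 1626 CPM in mSTAR1302 and 298 CPM in vehicle, 5.46-fold (4.72 to 6.35). Lower in mSTAR1302 were Pdcd1, at 49.7 against 104 CPM, Tox, at 14.4 against 47.3 CPM, and Tcf7, at 48.4 against 137 CPM. The other leading genes higher in mSTAR1302 were Gm15056, Lcn4, AA467197, Esm1, Osbpl9, Emilin2, Eno1, Bcl2l1, Chchd10, Polr1c and Ctla2a. Of these, Eno1 and Ctla2a were under 2-fold, and for Gm15056 a single cell held 99% of the UMIs. The leading lower genes were Wfdc17, Mgl2, Alox5ap, Ccl2, Cd300c2, Pltp, H2-DMb1, Ifi30, Fcgr2b, Cxcl16, Napsa and Il1b, for each of which 1 cell held at least 83.3% of the vehicle UMIs. Most of them are genes of myeloid and antigen-presenting cells.

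Markers of other cell types were present among the selected barcodes. A vehicle interferon-high barcode of 26770 UMIs, 4.22% of the vehicle sum, held 2404 of the 2461 UMIs of the MHC class II genes Cd74, H2-Aa, H2-Ab1 and H2-Eb1, with 3 Cd3 and 1 Cd8 UMIs. A mSTAR1302 barcode of 9366 UMIs held 296 of 358. The dendritic list summed to 171 CPM in mSTAR1302 and 3958 CPM in vehicle interferon-high cells, against 70.5 and 128 CPM in other CD8 cells. Macrophage and monocyte markers summed to 43.6 CPM in mSTAR1302 and 181 CPM in vehicle, against 65.6 and 951 CPM in other CD8 cells and 357 and 2041 CPM in near-empty droplets, and Fcgr1, Adgre1 and Ms4a7 were at 0 in mSTAR1302 interferon-high cells. At least 1 UMI of 28 macrophage, dendritic and B cell markers was found in 39.0% of mSTAR1302 and 78.1% of vehicle interferon-high cells, against 39.1% and 75.2% of other CD8 cells. Of the 5 T cell genes that the selection did not use, Trac, Trbc1, Trbc2, Cd2 and Lat, 0 differed by 2-fold between interferon-high and other CD8 cells in either library, and their median log2 ratios were -0.12 in mSTAR1302 and 0.11 in vehicle. B cell markers summed to 3.92 and 3.15 CPM and neutrophil markers to 2.18 and 1.58 CPM in mSTAR1302 and vehicle interferon-high cells. NK markers summed to 45.3 and 213 CPM there, against 43.4 and 147 CPM in other CD8 cells. Tumour and stromal markers summed to 37.9 and 83.5 CPM, against 63.4 and 46.8 CPM in other CD8 cells. Of that list, Epcam was higher in vehicle interferon-high cells, with a log2 ratio of 3.63. Without the 2 interferon-high barcodes per library that held at least 10 UMIs of the MHC class II genes, 98 genes were at least 2-fold higher than in other CD8 cells in both libraries and 30 lower, and 38 were higher and 144 lower in mSTAR1302 than in vehicle interferon-high cells.

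The T cell receptor segments named as the target of mSTAR1302 were counted among all beta-chain variable segment UMIs, which the selection did not use. Trbv13-2 and Trbv13-3 made up 44 of 85 such UMIs (51.8%, exact interval 40.7 to 62.7%) in mSTAR1302 interferon-high cells and 714 of 1628 (43.9%) in other CD8 cells. In vehicle they made up 2 of 25 (8.0%, 0.984 to 26.0%) in interferon-high cells and 79 of 586 (13.5%) in other CD8 cells. The difference between interferon-high and other CD8 cells was 7.91 points (-2.84 to 18.5) in mSTAR1302 and -5.48 points (-12.0 to 11.7) in vehicle, and both intervals included 0. Between the libraries, interferon-high cells differed by 43.8 points (23.8 to 55.6). A 3′ library reads variable segments in few cells, so these shares rest on few UMIs.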

How the data were processed

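Single-cell transcripts were counted in 1 mSTAR1302 and 1 vehicle library, grouped by the labels. The authors deposited unfiltered matrices of UMI counts for 32285 genes in each barcode. They held 1728776 barcodes with 96486469 UMIs for mSTAR1302 and 1910622 barcodes with 110026997 UMIs for vehicle. Cell Ranger made the counts, version 4 per the matrix headers and 6.0.1 per the submitters' processing notes, which also name mm10, FastQC, MultiQC 1.9 and Seurat. The version behind the counts is thus uncertain.

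The values of 1 gene are not reported here. The members and gene lists were chosen with earlier results of these data known. After the filters given in the report, UMIs were summed over interferon-high and over other CD8 cells of each library and scaled to CPM. Genes with a mean of at least 20 CPM over the sums compared were called at 2-fold on log2 values with 1 CPM added. Ratios have exact conditional binomial intervals, sums exact Poisson intervals, shares Clopper-Pearson intervals and differences of shares Newcombe intervals, all at 95%. With 1 library per group no test was run. Doublets were not called or removed. Genes of the lists could be named, and up to 12 more per direction and contrast, ranked by the interval bound nearest 1. The calls and intervals were tested on simulated data, in which 200 of 200 genes changed by known folds were recovered for mSTAR1302 interferon-high over other CD8 cells, 199 for vehicle, and 198 for mSTAR1302 over vehicle interferon-high cells, over 4772, 5177 and 4847 genes. Of the genes left unchanged there, 0, 15 and 28 were also called. The simulated sums were Poisson draws, the counting error that the intervals assume, with changes larger than the 2-fold call. They held no UMIs gathered in single cells, so the recovery says nothing about genes that rest on few cells.

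Gene identifiers were matched to GENCODE M21 (32158 of 32285), and 20294 symbols had a RefSeq promoter. Computation used SciPy 1.17.1 and NumPy 2.4.6 under Python 3.11.15, with tables in pandas 2.3.3 and figures in matplotlib 3.10.9. Alternatives changed the threshold, the depth, the floor on CPM, the scaling, the pseudocount, the cell weights, the quality limits and the cells kept. Leaving out the cells rich in MHC class II transcripts was chosen after seeing the data.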

Additional observations from a re-analysis of the deposited data

Results flagged for a closer look

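Each gene below was higher in interferon-high than in other CD8 cells in 1 library and lower in the other, with counting intervals that exclude no difference in both. The values are log2 ratios of interferon-high over other CD8 cells, and the difference between the libraries was not tested. Ctla4 stood at 0.22 in mSTAR1302 and -0.29 in vehicle, Hsph1 at 0.30 and -0.65, and Trac at 0.091 and -0.26. Turned the other way were Pcna at -0.25 in mSTAR1302 and 0.46 in vehicle, Cd2 at -0.12 and 0.49, Trbc2 at -0.17 and 0.11, and Ccl5 at -0.12 and 1.92.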

How the results depend on the processing

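With 1 library per group, no library could be left out and no replicate error exists. No paired analysis was possible because each group holds 1 library. Of 396 gene values under the alternatives, 292 moved by less than their counting interval, 99 moved by more and 5 reversed. Of 330 list medians, 325 stayed within an interval drawn from the ratios of the list's own genes and 5 moved out of it. In short lists that interval runs from the lowest to the highest gene, so few shifts could be called there. The reversals were Ccl5 in mSTAR1302, interferon-high over other CD8 cells, at log2 0.080 with a threshold of 2 UMIs, 0.22 with 3 per 10000 UMIs and 0.013 without cells holding a macrophage, dendritic or B cell marker; in the last setting, which kept 177 mSTAR1302 and 16 vehicle interferon-high cells, Pdcd1 in vehicle turned to 0.22 and Ccl5 in mSTAR1302 over vehicle interferon-high cells to 0.039. The cause of the reversals was not tested. A threshold of 2 UMIs gave shares of 8.88% and 6.01%, a difference of 2.87 points, and 107 genes lower in mSTAR1302 than vehicle interferon-high cells. A threshold of 5 UMIs gave shares of 2.75% and 2.67%, a difference of 0.0775 points, and 63 genes higher and 263 lower in that contrast. A threshold of 3 per 10000 UMIs gave a mSTAR1302 share of 8.20%, a difference of 3.48 points, 55 genes lower in mSTAR1302 interferon-high than other CD8 cells, and 22 higher in mSTAR1302 than vehicle. Thinning to 3000 UMIs gave shares of 2.57% and 1.94%, 343 genes lower in vehicle, and 148 higher and 394 lower between libraries. A floor of 50 CPM gave 64 higher and 14 lower in mSTAR1302, 147 and 98 in vehicle, and 13 and 46 between libraries. A floor of 5 CPM gave 105 lower in mSTAR1302, 520 higher and 640 lower in vehicle, and 240 and 631 between libraries. Median-ratio scaling gave 55 higher between libraries. Without marker-holding cells, 47 were lower in mSTAR1302, 598 higher and 565 lower in vehicle, and 303 and 621 between libraries. Weighting cells equally, a pseudocount of 5 CPM and the other quality limits left the counts and shares within 1.5 times or within their intervals.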
